A study of Mus musculus with 6 samples.

Results

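The proteasome family was followed gene by gene in a sorted bone marrow fraction of wild type and Myb knockdown mice. Its members were all genes whose symbol begins with Psma, Psmb, Psmc, Psmd, Psme, Psmf or Psmg and a digit. Of 19938 genes with a probe set of their own, 50 matched. Of these, 48 encode subunits, activators, an inhibitor or assembly factors, and all 48 were bright enough to be among the 13956 genes tested. Psmc3ip and Psme3ip1 match by symbol but are named for proteins that bind a subunit, and they were kept apart, with differences between knockdown and wild type of -0.12 and 0.06. Where a gene had several probe sets, the brightest over all 6 arrays stood for it, so the overall level chose the probe set and the difference between the groups did not. RefSeq lists 57 such symbols, of which 6, all pseudogenes, were matched to no probe set. Psme2b was matched only to a probe set shared with Psme2.

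The proteasome degrades proteins that carry ubiquitin chains. Its 20S core is a barrel in which rings of alpha subunits (Psma) guard the entrance and rings of beta subunits (Psmb) hold the catalytic sites, and its 19S cap recognises ubiquitin, unfolds the substrate with a ring of ATPases (Psmc) and removes the chain. In lymphoid and myeloid cells, and under interferon gamma in most cells, Psmb8, Psmb9 and Psmb10 replace the catalytic subunits Psmb5, Psmb6 and Psmb7 and form the immunoproteasome, which makes many of the peptides shown on MHC class I. The cell matches subunit supply to demand largely through the transcription factor Nrf1, encoded by Nfe2l1, which raises subunit genes together when proteasome activity is short.

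RNA was measured on 6 Affymetrix arrays, 1 for each of 3 wild type and 3 MYB knockdown mice. All were 4-week-old C57BL6 males. The cells were Kit-positive, CD11b-positive and lineage-low, sorted from bone marrow, a gate that the labels call K11bL. How Myb was lowered is not given in the sources used here. Values are on the authors' log2 scale, on which a step of 1 is a doubling, and each difference is knockdown minus wild type with the standard error (SE) of the limma fit. A gene was counted as changed at an adjusted p under 0.05 over all genes tested. The 3 mice per group limit the precision. Proteasome genes were compared with each other by differences within a probe set, not by levels. Marker sums add signals over genes, and dim genes were set against the median or lower quartile of their arrays.

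Myb was 11.47, 11.46 and 11.46 in wild type mice 1, 2 and 3 and 11.26, 11.08 and 11.14 in knockdown mice 1, 2 and 3, a difference of -0.30 ± 0.06 (adjusted p = 0.0196). It did not pass without any 1 of the wild type mice (adjusted p = 0.0963, 0.0900 and 0.0928) or without knockdown mouse 2 (0.0777), nor with all mice after median centring (-0.23, 0.074) or without the trend of eBayes (0.0662). The surface proteins used for sorting were also read: the difference was -0.27 for Kit (adjusted p = 0.06) and -0.39 for Itgam, which encodes CD11b (adjusted p = 0.202). Knockdown mouse 3 stood apart, with correlations over all probe sets of 0.977 and 0.984 with knockdown mice 1 and 2, which correlated at 0.994 with each other. Results are therefore also given without it. Cell type markers differed between the groups as well. Of 10 neutrophil granule genes 8 fell, beside 5.48% of all genes tested. Their summed linear signal was 43901 to 44541 in wild type and 15387 to 20953 in knockdown. Of 8 listed megakaryocyte and platelet genes 6 were measured, and 5 of these rose, beside 6.12% of all genes tested. The sums over the 6 were 1075 to 1158 in wild type and 2840 to 3303 in knockdown. In sorted bulk RNA, fewer cells of a type and less RNA per cell cannot be told apart, and the part of these marker differences in the proteasome values was not tested.

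The start regions of a few members show what lies in front of genes that passed the test and genes that did not. These windows run from 250 bases before to 50 bases after the annotated start, so the start is the first base after 250; they are from RefSeq on GRCm38.p6 and are read 5′ to 3′ on the gene's strand. Psmb5 (chr14:54617946-54618245, minus strand) and Psmb6 (chr11:70525107-70525406, plus strand) are shown for the antioxidant response element core, the kind of site that Nrf1 and Nrf2 bind. Psmb8 (chr17:34197945-34198244, plus strand) and Psmb9 (chr17:34187281-34187580, minus strand) are the immune counterparts. Psmg4 (chr13:34162714-34163013, plus strand) had the largest positive difference of the 48 genes, and Psme3 (chr11:101315963-101316262, plus strand) was the activator subunit that passed the test. Capitals mark every match to 6 short motifs, on either strand: the antioxidant response element core TGACNNNGC, the CCAAT box CCAAT, the ETS site CCGGAAG, the interferon-stimulated response element (GAAA, any 2 bases, GAAA), the gamma-activated site TTCNNNGAA and the E-box CACGTG.
Psmb5: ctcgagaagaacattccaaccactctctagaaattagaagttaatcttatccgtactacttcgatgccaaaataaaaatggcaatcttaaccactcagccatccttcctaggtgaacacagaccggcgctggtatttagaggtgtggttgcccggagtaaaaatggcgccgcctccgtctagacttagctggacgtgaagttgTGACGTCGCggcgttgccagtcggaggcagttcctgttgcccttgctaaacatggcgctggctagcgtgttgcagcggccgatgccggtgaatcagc
Psmb6: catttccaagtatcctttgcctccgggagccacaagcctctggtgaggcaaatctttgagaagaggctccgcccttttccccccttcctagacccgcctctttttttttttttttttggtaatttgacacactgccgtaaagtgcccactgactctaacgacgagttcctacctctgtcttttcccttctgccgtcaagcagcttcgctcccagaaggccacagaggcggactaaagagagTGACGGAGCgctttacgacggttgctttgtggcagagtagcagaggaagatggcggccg
Psmb8: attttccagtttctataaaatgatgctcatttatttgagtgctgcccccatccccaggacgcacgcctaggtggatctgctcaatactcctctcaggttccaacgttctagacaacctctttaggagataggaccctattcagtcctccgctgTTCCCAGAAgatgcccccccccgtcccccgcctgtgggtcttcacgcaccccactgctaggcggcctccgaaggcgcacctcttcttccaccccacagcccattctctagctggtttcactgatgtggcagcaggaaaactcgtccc
Psmb9: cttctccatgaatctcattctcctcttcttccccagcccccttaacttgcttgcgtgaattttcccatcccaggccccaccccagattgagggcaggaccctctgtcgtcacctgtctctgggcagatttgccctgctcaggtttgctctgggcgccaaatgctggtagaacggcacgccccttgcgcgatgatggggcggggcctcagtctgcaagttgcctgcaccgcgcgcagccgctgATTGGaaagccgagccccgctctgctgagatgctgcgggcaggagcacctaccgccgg
Psmg4: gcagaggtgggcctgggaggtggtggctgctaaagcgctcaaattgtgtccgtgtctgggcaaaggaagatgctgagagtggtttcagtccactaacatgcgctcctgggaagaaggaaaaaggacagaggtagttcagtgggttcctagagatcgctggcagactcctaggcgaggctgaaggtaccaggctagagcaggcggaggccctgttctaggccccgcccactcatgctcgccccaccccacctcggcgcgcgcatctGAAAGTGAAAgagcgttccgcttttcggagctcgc
Psme3: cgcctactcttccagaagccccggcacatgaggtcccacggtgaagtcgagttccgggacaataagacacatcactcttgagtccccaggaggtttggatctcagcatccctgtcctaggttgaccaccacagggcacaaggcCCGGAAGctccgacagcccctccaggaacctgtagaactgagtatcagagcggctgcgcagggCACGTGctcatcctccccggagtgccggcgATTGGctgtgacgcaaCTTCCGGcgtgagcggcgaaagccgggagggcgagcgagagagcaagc

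In these windows Psmb5 and Psmb6 each held 1 antioxidant response element core, at base 204 and base 242. Psmb8 held a gamma-activated site at base 154, Psmb9 a CCAAT box on the other strand at base 243, and Psmg4 an interferon-stimulated response element at base 266. Psme3 held ETS sites at bases 144 and 253, an E-box at 207 and a CCAAT box at 237. Over the family, 40 of the 48 genes had 43 windows. The antioxidant core was in 6 of them (14%), beside 12.4% of all RefSeq windows of this length and 14.1% of those of the genes tested. The ETS site was in 15 windows (34.9%, beside 8.86% and 15.5%) and the interferon-stimulated element in 5 (11.6%, beside 3.44% and 2.95%), namely those of Psmb3, Psmd4, Psmd9, Psme1 and Psmg4. The CCAAT box was in 32.6% (37.4% and 36.8%), the gamma-activated site in 6.98% (8.3% and 6.82%), the E-box in 9.3% (7.15% and 9.61%) and the short MYB site AACNG, which is not in capitals above, in 86% (80.3% and 77.7%). A match describes letters and not a bound site. Motifs were counted separately where they overlapped.

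As a family, the proteasome genes lay above wild type in the knockdown by a small amount. The difference was positive for 42 of the 48 genes, with a median of 0.23, beside 53.6% positive and a median of 0.02 over all genes tested. The test was passed upward by 8 of 48 genes (16.7%, beside 6.12% of all genes tested) and downward by 1 (2.08%, beside 5.48%). The genes that rose were Psma3, Psma5, Psmb5, Psmd3, Psmd8, Psme3, Psmg2 and Psmg4, by 1.21-fold to 1.67-fold. The gene that fell was Psma8. At an unadjusted p under 0.05, 26 were higher and 1 lower, beside 15% and 10.6% of all genes. For 28 genes (58.3%, beside 19.9%) every knockdown mouse lay above every wild type mouse. Just outside the threshold were Psma7 (adjusted p = 0.0513), Psmb8 (0.0667), Psmg1 (0.0694), Psmb3 (0.0695), Psmd7 (0.0716), Psmb10 (0.0736) and Psmd9 (0.0783). Median centring of the arrays moved the median of the 48 genes to 0.30 and that of all genes to 0.09, with 15 of 48 (31.2%) higher beside 10.3% of all genes, and quantile normalization gave 0.21 and 0.06 with 5 of 48 higher beside 7.14%. Psma8 alone was lower in both, beside 4.25% and 5.92% of all genes. The counts over all genes were 854 higher and 765 lower, and 1433 and 593 after median centring.

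**Figure D1:**
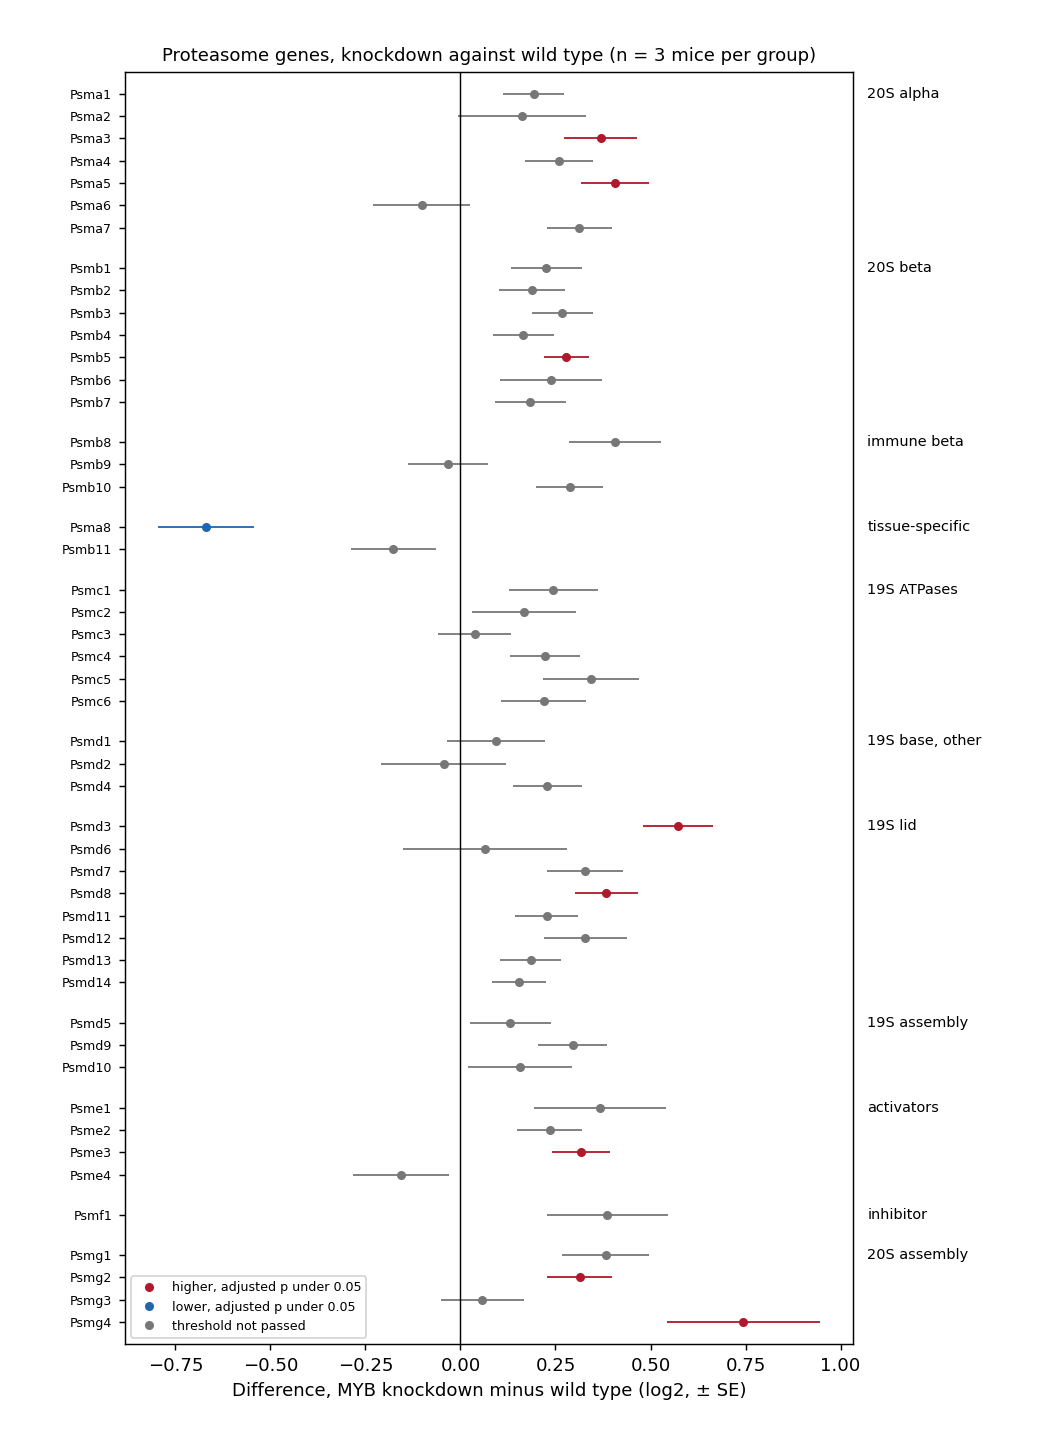
Difference between knockdown and wild type on the log2 scale (x axis) for each of the 48 proteasome genes (rows, grouped by role), as points with bars of ± 1 SE from limma, 3 mice per group. Red points passed the test as higher and the blue point as lower; most points lie right of 0, and the small negative differences of Psmb9 and Psmd2 turn positive after median centring of the arrays.

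The number of genes past the threshold depended on single mice, and most of all on knockdown mouse 3. Knockdown mice 1 and 2 both lay above all wild type mice for 42 of 48 genes (87.5%, beside 32.3% of all genes). Knockdown mouse 3 lay above all wild type mice for 29 (60.4%, beside 45.1%) and below all of them for 11 (22.9%, beside 36.5%). The median shift of the 48 genes from their wild type mean was 0.24, 0.27 and 0.15 in knockdown mice 1, 2 and 3, beside 0.01, 0.03 and 0.05 over all genes. Without knockdown mouse 3, 33 of 48 genes (68.8%, beside 17.2% of all genes) were higher and 1 was lower (beside 10%), and with array weights 34 (70.8%, beside 16.8%) were higher and 2 lower (beside 11.2%). Leaving out other mice gave fewer calls. Psmd3 alone rose without wild type mouse 1 (beside 2.12% of all genes), wild type mouse 2 (2.19%) or knockdown mouse 2 (3.09%), and Psmd3 and Psmb5 rose without wild type mouse 3 (2.54%). Without knockdown mouse 1, 7 genes rose (beside 5.57%): Psma5, Psmb5, Psmb8, Psmd3, Psme3, Psmg1 and Psmg4. Psma8 fell without wild type mouse 2 (beside 2.72% of all genes lower), knockdown mouse 1 (5.8%) or knockdown mouse 2 (3.44%), and no gene of the 48 was lower without wild type mouse 1 (2.63%) or 3 (2.81%), where the adjusted p of Psma8 was 0.0607 and 0.0508. Over all 14 alternatives Psma8 passed in 11, Psmb5 in 10, Psmd8 in 9, Psma5 and Psme3 in 8, Psmg4 in 7, Psmg2 in 6 and Psma3 in 5. The median difference kept its sign throughout, between 0.20 and 0.26 with 1 mouse left out. Knockdown mice also spread more, with a median SD over the 48 genes of 0.141 beside 0.0703 in wild type; the knockdown SD was the larger for 39 of 48 genes and for 79.9% of all genes.

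**Figure D2:**
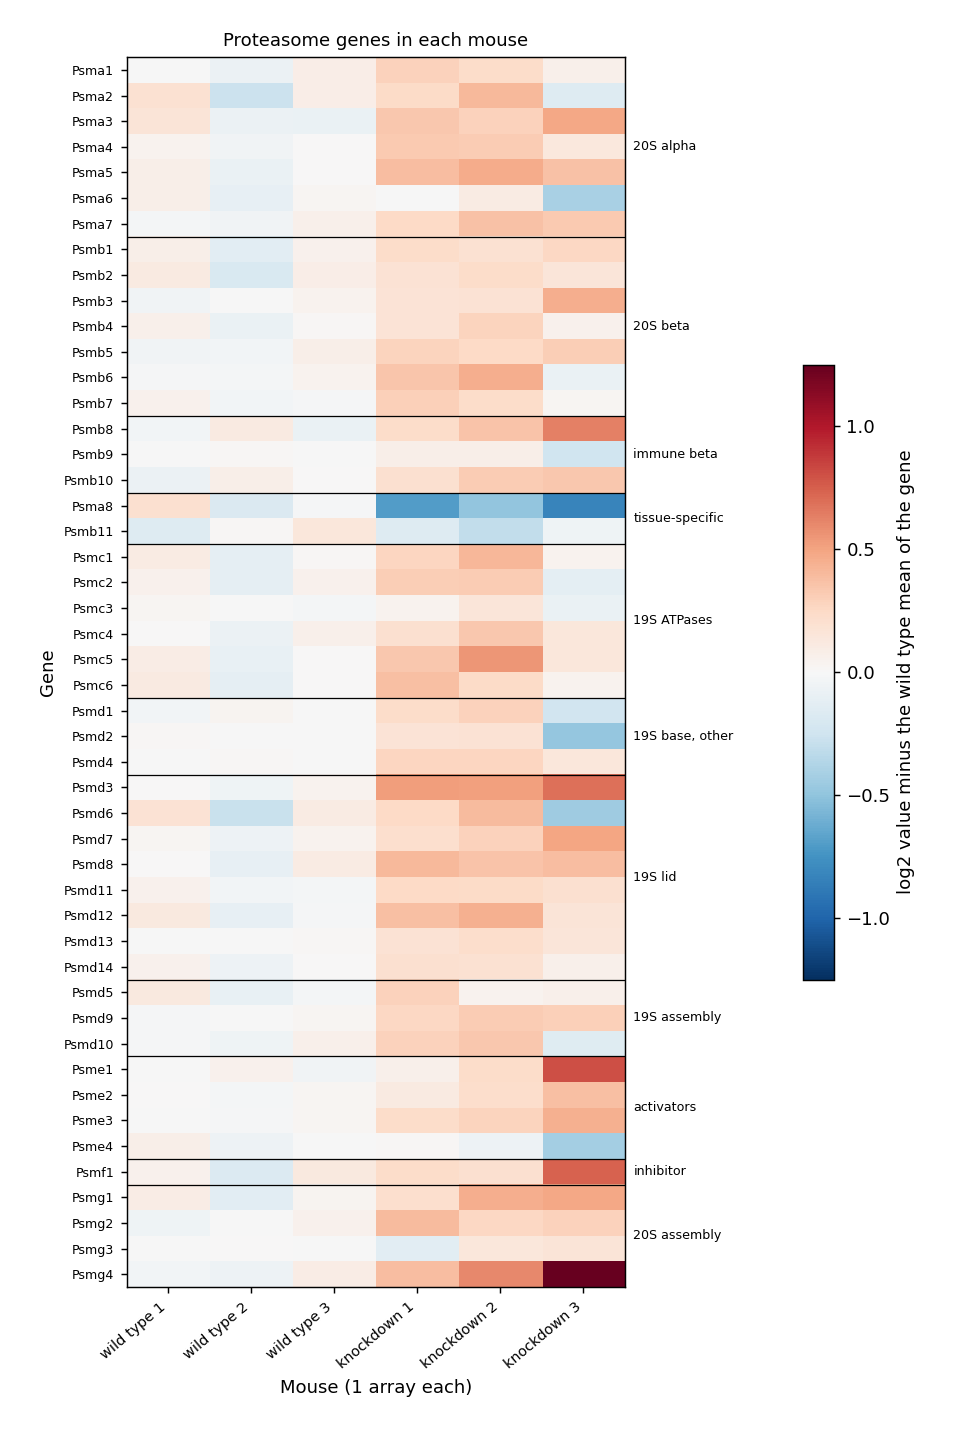
Log2 value minus the gene's wild type mean (colour) for the 48 proteasome genes (rows, grouped by role) in each of the 6 mice (columns). The columns of knockdown mice 1 and 2 are mostly red, while that of knockdown mouse 3 holds the highest value, 1.24 for Psmg4, and also values below wild type such as Psmd2, Psmd6 and Psma6.

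Counts by role, here and below, stand beside 6.12% of all genes tested higher and 5.48% lower. Without knockdown mouse 3 these shares were 17.2% and 10%. Of the 7 alpha subunits, which form the outer rings and the gate of the core, 2 rose, and the median difference was 0.26. Psma5 was 9.14, 8.98 and 9.07 in wild type mice 1, 2 and 3 and 9.45, 9.53 and 9.43 in knockdown mice 1, 2 and 3 (0.41 ± 0.09, adjusted p = 0.0226). Psma3 was 10.23, 9.997 and 9.993 in wild type and 10.41, 10.36 and 10.56 in knockdown (0.37 ± 0.10, adjusted p = 0.0428). Neither gene's groups overlapped in the probe set used. All probe sets of these genes had positive differences, of 0.34, 0.37 and 0.41 for Psma3 and of 0.25 and 0.41 for Psma5. In the other Psma5 probe set knockdown mouse 3, at 8.97, lay below wild type mice 1 and 3, at 9.11 and 9.07. With the mean of its probe sets Psma5 did not pass (adjusted p = 0.0951). Psma7 differed by 0.31 ± 0.09 (adjusted p = 0.0513) and Psma4 by 0.26 ± 0.09 (0.109), also without overlap. Psma6 went the other way, at 11.02, 10.84 and 10.97 in wild type and 10.94, 11.05 and 10.54 in knockdown (-0.10 ± 0.13, adjusted p = 0.703), where knockdown mouse 3 was the lowest of all mice and the other 2 lay among the wild type values or just above them. Without that mouse Psma6 differed by 0.051 (adjusted p = 0.607), and 5 of the 7 alpha genes passed as higher.

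Of the 7 standard beta subunits, 1 rose, and all 7 differences were positive, with a median of 0.23 and a range of 0.17 to 0.28. Psmb5, the subunit with chymotrypsin-like activity and the main target of proteasome inhibitor drugs, was 11.23, 11.24 and 11.35 in wild type and 11.56, 11.52 and 11.58 in knockdown (0.28 ± 0.06, adjusted p = 0.0188). Its groups did not overlap, and its 3 knockdown mice lay close together. Psmb6, which cuts after acidic residues, was 10.01, 10.01 and 10.07 in wild type and 10.38, 10.48 and 9.95 in knockdown (0.24 ± 0.13, adjusted p = 0.324). Here knockdown mice 1 and 2 stood above wild type and knockdown mouse 3 below it, and without mouse 3 the difference was 0.40 (adjusted p = 0.00126). Psmb7, which cuts after basic residues, was 10.02, 9.94 and 9.95 in wild type and 10.27, 10.20 and 9.99 in knockdown (0.18 ± 0.09, adjusted p = 0.267), with the third knockdown mouse inside the wild type range. Among the non-catalytic beta subunits, Psmb3 differed by 0.27 ± 0.08 (adjusted p = 0.0695) and Psmb1 by 0.23 ± 0.09 (0.171), both without overlap.

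The 3 immune catalytic subunits did not share a pattern, and 0 of 3 passed the test (2 higher at an unadjusted p under 0.05). Psmb8 was 9.08, 9.22 and 9.03 in wild type and 9.34, 9.47 and 9.74 in knockdown (0.41 ± 0.12, adjusted p = 0.0667). Psmb10 was 9.36, 9.51 and 9.44 in wild type and 9.64, 9.76 and 9.78 in knockdown (0.29 ± 0.09, adjusted p = 0.0736). For both genes every knockdown mouse lay above every wild type mouse, and knockdown mouse 3 was the highest. Without it both passed (adjusted p = 0.0195 and 0.0207), with smaller differences and smaller SEs, 0.30 ± 0.08 and 0.26 ± 0.07. Psmb9 was 10.04, 10.06 and 10.04 in wild type and 10.13, 10.13 and 9.80 in knockdown (-0.03 ± 0.10, adjusted p = 0.902). Its values in knockdown mice 1 and 2 were just above wild type and that of mouse 3 was well below, and its sign turned after median centring (0.042), with array weights (0.064) and without mouse 3 (0.077).

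Whether the immune subunits changed more than the standard subunits they replace was asked in 3 pairs, as the change of the immune gene minus that of its counterpart in each mouse. Psmb8 against Psmb5 gave 0.13 and Psmb10 against Psmb7 gave 0.10, each with an exact two-sided permutation p of 0.5 (0.5 after Benjamini-Hochberg adjustment over the 3 pairs). Psmb9 against Psmb6 gave -0.27 (exact p = 0.1, adjusted 0.3). In that pair the 3 knockdown mice, at -0.27, -0.38 and -0.17 relative to the wild type mean, lay below the wild type mice at 0.01, 0.04 and -0.05. With 3 mice against 3 the smallest p this test can give is 0.1, so no pair could pass. Psmb9 and Tap1, a peptide transporter gene of the MHC class I pathway, start back to back, and their windows share 275 bases. Tap1 was 9.01, 9.26 and 9.18 in wild type and 9.39, 9.28 and 9.81 in knockdown (0.34 ± 0.15, adjusted p = 0.184), with all knockdown mice above all wild type mice and mouse 3 the highest, where Psmb9 had its lowest value in mouse 3. In the annotation order Tap1 lies between Psmb9 and Psmb8, and Tap2 follows Psmb8. Of other cells that express immune subunits, the summed signals were 3531 to 3857 in wild type and 3871 to 4619 in knockdown for 8 dendritic genes, 3942 to 4419 and 2809 to 3326 for 7 monocyte and macrophage genes, and 1150 to 1565 and 994 to 1034 for 6 B lymphoid genes. Within the dendritic list Itgax, Siglech and Cd209a rose and Xcr1 fell (-0.70, adjusted p = 0.0153), while Flt3, Cd74, H2-Aa and H2-Ab1 did not pass. Within the monocyte and macrophage list F13a1 and Vcam1 fell while Cd68 and Fcgr1 rose. Within the B lymphoid list Ebf1 and Igll1 fell, and Cd79b differed by 0.04 without passing. The 7 T and NK genes, of cells that a lineage-low gate should hold few of, summed to 4239 to 4593 and 1559 to 2174, but Nkg7 made up most of that sum and was the only fall among the 4 of them tested (-1.44, adjusted p = 0.000353). Klrd1 rose (1.42, adjusted p = 0.00253), Cd3e and Ncr1 differed by -0.03 and 0.05 without passing, and Cd3g lay under the lower quartile of every array. The part of these cells in the immune subunit values was not tested.

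**Figure D3:**
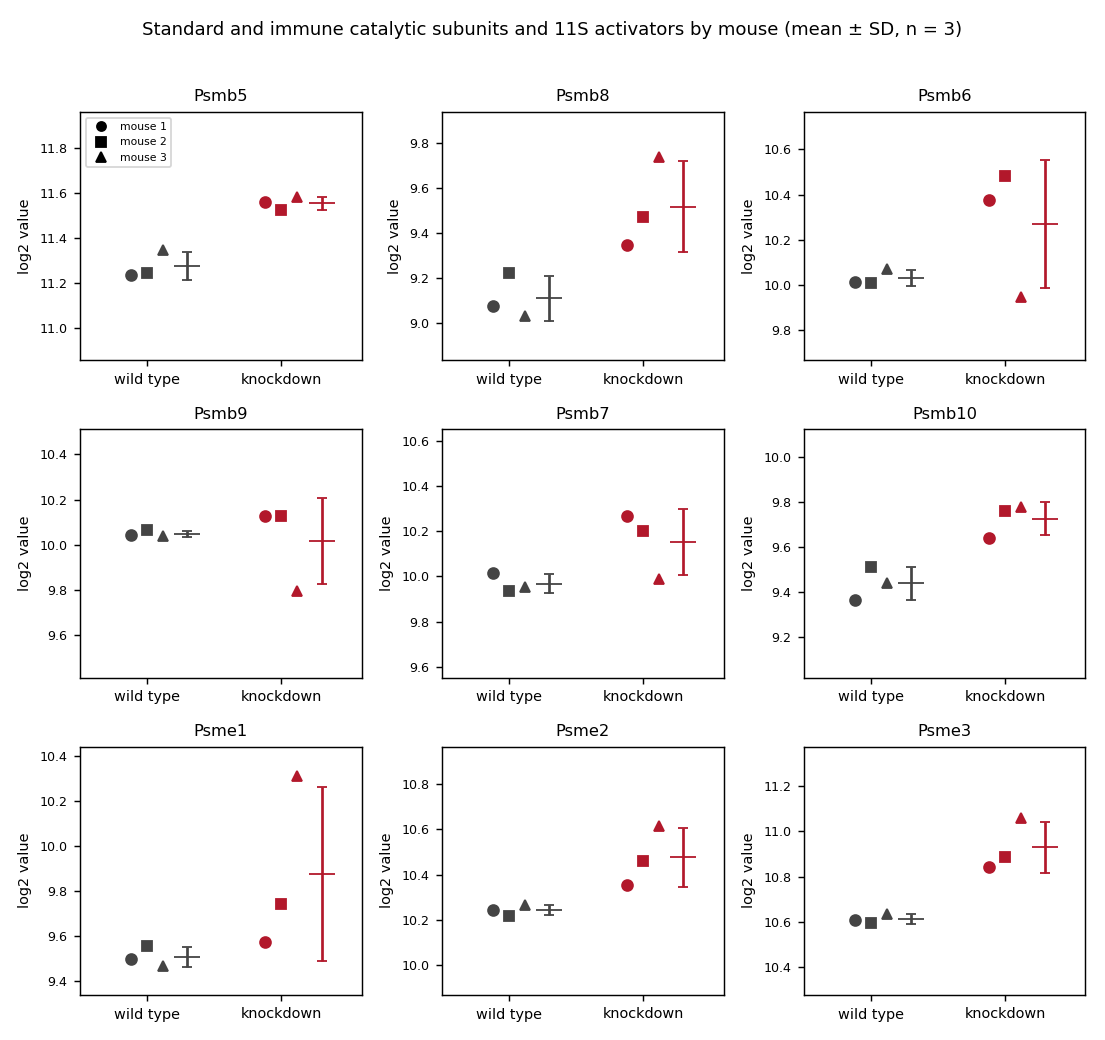
Log2 value (y axis, own scale in each panel, equal span) of the standard catalytic subunits Psmb5, Psmb6 and Psmb7, the immune subunits Psmb8, Psmb9 and Psmb10 and the activators Psme1, Psme2 and Psme3 in each wild type (grey) and knockdown (red) mouse, with symbols for mice 1, 2 and 3 and bars for the mean ± SD (n = 3). The groups do not overlap for Psmb5, Psmb8, Psmb10 and the 3 activators, while knockdown mouse 3 lies lowest for Psmb6 and Psmb9; the sign of the Psmb9 difference depends on the scaling.

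Of the 2 tissue-specific core subunits 1 fell. Psma8, the alpha subunit of the testis proteasome, was 5.75, 5.38 and 5.54 in wild type and 4.86, 5.06 and 4.74 in knockdown (-0.67 ± 0.13, adjusted p = 0.0123). The groups did not overlap, but all 6 values lay under the medians of their arrays, 5.87 to 5.99, and the gene was left out when the dimmer 50% of genes were removed. Psmb11, the catalytic subunit of the thymus proteasome and the neighbour of Psmb5, was 5.37, 5.55 and 5.67 in wild type and 5.36, 5.22 and 5.47 in knockdown (-0.18 ± 0.11, adjusted p = 0.386), with overlapping groups.

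In the 19S base, 0 of 6 ATPases passed (2 were higher at an unadjusted p under 0.05), and all 6 differences were positive, with a median of 0.22. Psmc5 was 8.47, 8.29 and 8.38 in wild type and 8.72, 8.94 and 8.53 in knockdown (0.34 ± 0.13, adjusted p = 0.125). Psmc4 differed by 0.22 ± 0.09 (adjusted p = 0.173), Psmc1 by 0.24 ± 0.12 (0.241) and Psmc6 by 0.22 ± 0.11 (0.275). In each of the 6 ATPase genes knockdown mouse 3 lay below knockdown mice 1 and 2. Without it 5 of 6 passed as higher, beside 17.2% of all genes tested. The median shift of the ATPase genes from wild type was 0.29 and 0.33 in knockdown mice 1 and 2 and 0.04 in mouse 3. Of the 3 other base subunits none passed, and 1, the ubiquitin receptor Psmd4, was higher at an unadjusted p under 0.05. It was 8.54, 8.56 and 8.54 in wild type and 8.81, 8.82 and 8.69 in knockdown (0.23 ± 0.09, adjusted p = 0.159), without overlap. The scaffold subunits Psmd1 and Psmd2 lay above wild type in knockdown mice 1 and 2 and below it in mouse 3. Psmd2 was 10.79, 10.76 and 10.77 in wild type and 10.95, 10.95 and 10.29 in knockdown (-0.04 ± 0.16, adjusted p = 0.918). Its negative sign turned after median centring (0.031), and without mouse 3 the gene was higher by 0.18 (adjusted p = 0.0258). Its second probe set showed the same order, with 10.83, 10.84 and 10.24 in the knockdown mice. Psmd1 was 10.997, 11.07 and 11.03 in wild type and 11.26, 11.32 and 10.79 in knockdown (0.09 ± 0.13, adjusted p = 0.73), and was higher by 0.26 without mouse 3 (adjusted p = 0.00564).

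The lid holds the subunit that removes ubiquitin chains. Of its 8 genes under the symbol rule 2 were higher, all 8 differences were positive and the median was 0.28. The small lid subunit Sem1 falls outside that rule and went the other way, by -0.55 ± 0.22 (adjusted p = 0.164). Its groups overlapped, and it was lower at an unadjusted p under 0.05. Psmd3, a structural lid subunit, was 8.91, 8.86 and 8.95 in wild type and 9.43, 9.42 and 9.59 in knockdown (0.57 ± 0.09, 1.49-fold, adjusted p = 0.00581). Its knockdown values lay well clear of wild type, and it alone of the 48 genes passed under all 14 alternative settings, with an adjusted p of 0.000423 to 0.0428 when 1 mouse was left out. Psmd8, which closes lid assembly, was 9.94, 9.83 and 10.04 in wild type and 10.35, 10.29 and 10.33 in knockdown (0.38 ± 0.08, adjusted p = 0.0202). Its groups did not overlap either. Psmd7 differed by 0.33 ± 0.10 (adjusted p = 0.0716) and Psmd12 by 0.33 ± 0.11 (0.0956), and the deubiquitinase Psmd14 by 0.15 ± 0.07 (0.216), all without overlap. Psmd6 was the exception, at 10.06, 9.60 and 9.98 in wild type and 10.13, 10.28 and 9.43 in knockdown (0.06 ± 0.22, adjusted p = 0.908), where mouse 3 was the lowest of all 6. Among these 8 lid genes it also had the widest wild type spread. The 3 chaperones that build the base, Psmd5, Psmd9 and Psmd10, had a median difference of 0.16, 0 calls and 1 gene, Psmd9, higher at an unadjusted p under 0.05. Psmd9 was 7.31, 7.32 and 7.35 in wild type and 7.59, 7.65 and 7.63 in knockdown (0.30 ± 0.09, adjusted p = 0.0783), and the other two overlapped wild type.

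Among the activators, which replace or join the 19S cap at the ends of the core, 1 of 4 rose. Psme3, which forms the nuclear activator PA28 gamma, was 10.61, 10.59 and 10.63 in wild type and 10.84, 10.89 and 11.06 in knockdown (0.32 ± 0.08, adjusted p = 0.0325). The groups did not overlap. Psme1 and Psme2 form the interferon-inducible PA28 ring and lie on either side of Emc9. Psme1 was 9.50, 9.56 and 9.47 in wild type and 9.57, 9.74 and 10.31 in knockdown (0.37 ± 0.17, adjusted p = 0.231). Psme2 was 10.24, 10.22 and 10.26 in wild type and 10.36, 10.46 and 10.62 in knockdown (0.23 ± 0.09, adjusted p = 0.123), and a probe set shared by Psme2 and Psme2b had a difference of 0.29. In both genes all knockdown mice lay above wild type and mouse 3 was the highest, so that without it the differences were 0.15 (adjusted p = 0.143) and 0.17 (0.0577). Psme4, the nuclear activator PA200, was 9.61, 9.47 and 9.53 in wild type and 9.55, 9.47 and 9.11 in knockdown (-0.16 ± 0.13, adjusted p = 0.513), with only mouse 3 outside the wild type range. The inhibitor Psmf1 was 9.02, 8.80 and 9.09 in wild type and 9.20, 9.17 and 9.71 in knockdown (0.39 ± 0.16, adjusted p = 0.17), again with mouse 3 highest and no overlap.

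Of the 4 chaperones that build the 20S core, 2 rose, and their median difference of 0.35 was the highest of the groups with several genes. Psmg4 was 8.29, 8.26 and 8.42 in wild type and 8.71, 8.93 and 9.57 in knockdown (0.74 ± 0.20, 1.67-fold, adjusted p = 0.0488). All knockdown mice lay above wild type, and they differed more from each other than wild type mice did, with an SD of 0.446 beside 0.083; without mouse 3 the difference was 0.49 (adjusted p = 0.0032). Psmg2 was 9.37, 9.42 and 9.47 in wild type and 9.81, 9.68 and 9.70 in knockdown (0.31 ± 0.09, adjusted p = 0.0495), without overlap. Its partner Psmg1 was 8.85, 8.62 and 8.79 in wild type and 8.96, 9.21 and 9.24 in knockdown (0.38 ± 0.11, adjusted p = 0.0694), also without overlap. Psmg3, the partner of Psmg4, was 6.30, 6.31 and 6.29 in wild type and 6.16, 6.44 and 6.46 in knockdown (0.06 ± 0.11, adjusted p = 0.816), on both sides of wild type.

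Where knockdown mouse 3 lay relative to the others differed by role. It lay below both other knockdown mice for all 6 ATPases and all 3 other base genes. It lay above both for 3 of 4 activators, 3 of 4 core chaperones and the inhibitor. Over the 48 genes it was the lowest of the knockdown mice for 27 (56.2%, beside 42.9% of all genes) and the highest for 16 (33.3%, beside 44.9%). The roles were fixed with results of these data known, and no test was made of this pattern.

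**Figure D4:**
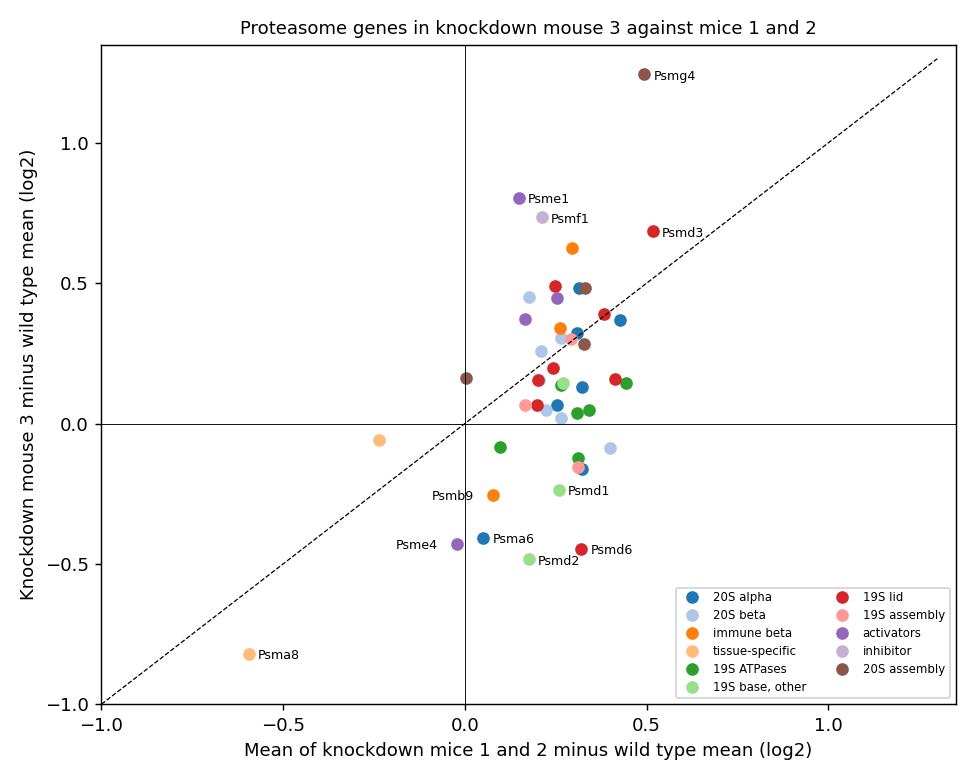
Shift from the wild type mean (log2) in knockdown mouse 3 (y axis) against the mean shift in knockdown mice 1 and 2 (x axis), 1 point per proteasome gene coloured by role, with a dashed line of equality. Most points lie right of 0, the ATPases and other base genes all lie below the line, and Psmg4, Psme1 and Psmf1 lie far above it.

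Genes around the proteasome were read from lists in the same fit. Of 9 measured proteins that bind or assemble the proteasome outside the symbol rule, 1 rose (median 0.12). Beside the shares of all genes tested, 6.12% higher and 5.48% lower, a single call in a list of this size is near the background, and so it is for each direction of the ubiquitin and peptidase lists. The gene that rose among the 9 was Zfand5, which activates the 26S particle. It was 9.20, 9.15 and 9.24 in wild type and 9.75, 9.69 and 9.46 in knockdown (0.43 ± 0.10, adjusted p = 0.0299), without overlap. Txnl1, a thioredoxin of the cap, differed by 0.33 (adjusted p = 0.088), the deubiquitinase Usp14 by 0.23 (0.245) and the small lid subunit Sem1 by -0.55 (0.164). Of 11 tested genes of the Nrf1 list 2 rose (beside 6.12% of all genes tested) and 0 fell (1 lower at an unadjusted p under 0.05). The median was 0.11. This list also holds Nfe2l2, which encodes Nrf2, and genes under Nrf2 control such as Nqo1. Its count is therefore not a reading of Nrf1 alone. Nqo1, a quinone reductase that Nrf2 controls, was 5.85, 5.84 and 5.85 in wild type and 7.01, 6.65 and 6.58 in knockdown (0.90 ± 0.13, 1.87-fold, adjusted p = 0.00286), with a wide gap between the groups, and passed in all 14 alternatives. The other called genes of these lists did not: Mafk and Zfand5 passed in 8, Thop1 in 10, Npepps in 9 and Ube2r2 in 7, and each of them missed the threshold without any 1 wild type mouse or without knockdown mouse 2. Mafk, a small Maf protein that pairs with Nrf1 and Nrf2, differed by 0.39 ± 0.10 (adjusted p = 0.0363). Gclm (0.37, adjusted p = 0.0538), Srxn1 (0.33, 0.0863) and Hmox1 (-0.56, 0.19) did not pass, and Hmox1 had the opposite sign. Nfe2l1, named after its values were seen, differed by 0.10 ± 0.09 (adjusted p = 0.554).

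Of 5 measured ubiquitin and E1 or E2 enzyme genes 1 rose, the conjugating enzyme Ube2r2 (0.47 ± 0.12, adjusted p = 0.0447). Of 10 shuttle factors and partners of the segregase VCP 0 passed, and 3 were higher at an unadjusted p under 0.05. Rad23b, which carries ubiquitinated proteins to the proteasome, came nearest at 10.25, 10.19 and 10.25 in wild type and 10.46, 10.60 and 10.97 in knockdown (0.45 ± 0.12, adjusted p = 0.0527), without overlap. Among 9 peptidases that trim proteasome products, Thop1 rose by 0.49 ± 0.11 (adjusted p = 0.0246) and Npepps, the puromycin-sensitive aminopeptidase, fell by 0.48 ± 0.12 (adjusted p = 0.0398). Of 10 MHC class I loading genes 0 passed (1 higher and 2 lower at an unadjusted p under 0.05), and the median difference was 0.0064. Calr and Pdia3, chaperones of the loading complex, differed by -0.20 (adjusted p = 0.0848) and -0.23 (0.128), and Tap2 by -0.19 (0.272), so that Tap1 and Tap2 had opposite signs. Of 14 interferon genes 0 passed (1 higher and 1 lower at an unadjusted p under 0.05), with a median of -0.09; Irf1, a factor that drives the immune subunit genes, differed by 0.25 ± 0.09 (adjusted p = 0.122) with all knockdown mice above all wild type mice, and Irf8 by -0.25 (0.18).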

How the data were processed

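For each array the authors deposited log2 values of probe sets. Affymetrix Expression Console and limma are named in the submitters' processing notes, with version, role, background correction and normalization not given in the sources used here. Of 35556 probe sets, 21789 had 1 symbol in the platform annotation and were used, 1621 had several and 12146 had none there. Genes in the lowest 30% of the mean over all 6 arrays were left out.

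Knockdown was compared with wild type in limma 3.58.1 (R 4.3.3; lmFit, eBayes with a trend, two-sided, no covariates), with Benjamini-Hochberg adjustment over 13956 genes, after a check on simulated data. The labels name separate mice. Marker sums add linear signals, 2 to the power of the deposited log2 value. Alternatives were a replicate block, quantile normalization, median centring, no dim filter or a filter at 50%, the mean of probe sets, eBayes without a trend, array weights and each array left out. Replicate numbers name different mice, and same-numbered mice did not deviate together (correlations 0.29, -0.19 and -0.08).

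Named were Myb, all catalytic and tissue-specific subunits, all called members, up to 4 members of smallest p per role and up to 4 genes per pathway list. Other members are named for the order of the knockdown mice, after their values were seen. Hmox1 and Nfe2l1 of the Nrf1 list lie outside these rules and are also named after their values were seen. Members and lists were chosen with earlier results of these data known. Promoter windows are RefSeq's (GRCm38.p6); Psma8, Psmb1, Psmb2, Psmb7, Psmc3, Psmd3, Psmd7 and Psmg2 have none there.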

Additional observations from a re-analysis of the deposited data

How the results depend on the processing

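The median difference of the 48 proteasome genes was positive under all 14 alternatives, from 0.20 to 0.30 (median centring), but the number past the threshold was not stable. Against 8 higher and 1 lower, the number higher was 5 after quantile normalization, 15 after median centring, 5 without the dim filter (beside 3.8% of all genes), 3 without the trend (beside 5.93%), 34 with array weights and 1 to 33 with 1 mouse left out. The number lower was 0 with the filter at 50%, 2 with array weights and 0 to 1 with 1 mouse left out. With a replicate block 6 proteasome genes were higher and 1 lower, and over all genes 746 and 726. Over all genes, against 854 higher and 765 lower, median centring gave 1433 higher, array weights 2351 higher and 1561 lower, and 1 mouse left out 296 to 2397 higher and 367 to 1397 lower. Among the genes followed in every alternative, the sign turned for Psmb9 with median centring (0.042), array weights (0.064) and without knockdown mouse 3 (0.077). It also turned for Psmd2 under the same settings (0.031, 0.14 and 0.18), for Psmd1 without knockdown mouse 2 (-0.0047) and for Uba6 without knockdown mouse 1 (-0.035). With 1 mouse left out the differences of Psmb9, Psmd2, Psmd1 and Uba6 ranged from -0.088 to 0.077, -0.15 to 0.18, -0.0047 to 0.26 and -0.035 to 0.20. Signs of other members turned too, such as Psma6 without knockdown mouse 3 (0.051). Of the 48 genes, 42 differences were positive in the main fit, 45 without knockdown mouse 3 and 39 without knockdown mouse 2. The causes were not tested. A fit with fewer mice has less power, and low signal of dim probe sets such as those of Psma8 and Psmb11 limit what can be measured.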
